A study of Homo sapiens with 6 samples.

Results

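The 31 genes described here carry glucose from the cell surface to the entry of pyruvate into the mitochondrion. They were taken from the deposited gene table by their symbols: glucose carriers, the enzymes of glycolysis with the regulators of phosphofructokinase, lactate dehydrogenases and lactate carriers, and the kinases and subunits of the pyruvate dehydrogenase complex. All 31 were found among the 35106 genes of the table, each in 1 row, and all 31 passed the filter on low counts that left 13718 genes to test. RNA was sequenced from HCT116 cells, a human colon carcinoma line labelled wild type and grown in serum-containing medium. The groups were untreated cells (treatment label none) and cells given 30 µM curcumin, the yellow polyphenol of turmeric, for 24 h, with 3 libraries each. The labels write the dose as 30 μm, read here as micromolar, and do not say whether the untreated cells received a solvent. They also leave unsaid whether replicates were grown apart, so the p-values here reflect the spread among these libraries alone, which may be technical.

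Glycolysis splits glucose into pyruvate in the cytosol. Its upper part spends ATP to trap and phosphorylate the sugar, with control at glucose uptake, hexokinase and phosphofructokinase, and its lower part, from aldolase to pyruvate kinase, handles the triose sugars and returns ATP and NADH. Pyruvate is then reduced to lactate, which leaves through monocarboxylate carriers, or enters the mitochondrion and the pyruvate dehydrogenase complex, which pyruvate dehydrogenase kinases switch off and phosphatases switch on. Colon carcinoma lines are known for a high rate of glycolysis to lactate in the presence of oxygen.

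After curcumin the transcripts of the lower steps rose together, whereas the glucose carrier SLC2A1 and both lactate carriers fell. All 10 members from aldolase to pyruvate kinase rose, with GAPDH going from 3493 ± 460.5 to 13682 ± 931 CPM (mean ± SD, n = 3; CPM is the usual depth-scaled count, here with TMM factors). SLC2A1 fell from 264 ± 16.4 to 103 ± 27.9 CPM and the lactate carrier SLC16A3 from 355 ± 57.8 to 112 ± 20.9 CPM. LDHB rose and LDHA did not pass the test. In bulk RNA, fewer cells of a type and less RNA per cell cannot be told apart. Of the 31 members, 17 were called higher and 7 lower with edgeR's quasi-likelihood test at a Benjamini-Hochberg adjusted p under 0.05 over all genes tested, where 27.2% of all tested genes were called higher, 28.9% lower and 56.1% in either direction. The median log2 fold change (curcumin over untreated) of the members was 0.52, against −0.04 over all tested genes. The groups did not overlap for 25 members, 17 higher and 8 lower, beside 30.9% and 33.1% of all tested genes (64% in either direction).

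**Figure D1:**
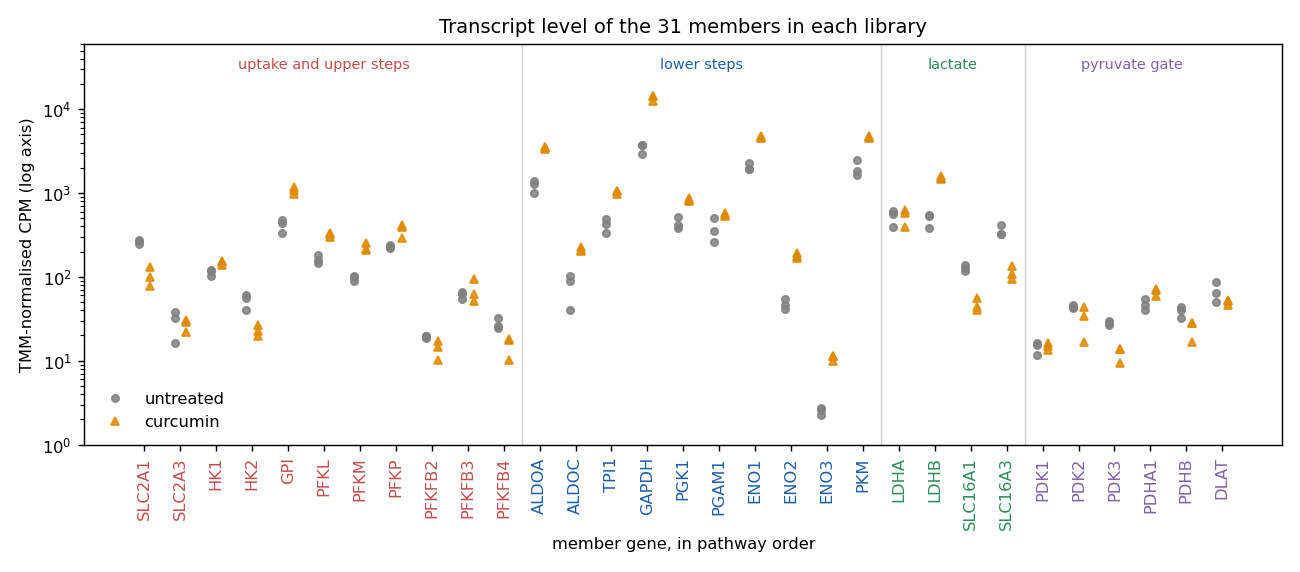
Level of each of the 31 members in each library, in TMM-normalised CPM on a log axis, with untreated libraries as grey circles and curcumin libraries as orange triangles. All 10 lower-step genes have their 3 curcumin libraries above their 3 untreated libraries, while SLC2A1, HK2, SLC16A1 and SLC16A3 have them below.

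The libraries held 16663610 to 20311888 counts. Their make-up differed between the groups, with TMM factors of 1.30 to 1.34 in untreated and 0.716 to 0.804 in curcumin libraries. Each rise or fall is thus a change in a gene's place among the transcripts of its library. With library size alone, 11 members were called higher and 15 lower, and of all genes called 1320 were higher and 7747 lower (median log2 fold change of all tested genes −0.84). Of 9 epithelial markers 7 were above 3 counts in every library, while VIL1 and CDX1 were at or near 0. They differed in direction: KRT8 went from 1942 ± 199 to 4653 ± 294 CPM and CLDN4 from 327 ± 64.7 to 41.9 ± 19.99 CPM, with sums of 4141 to 4856 and 7275 to 8482 CPM. Of 6 immune cell markers only CD68 and CD14 were above 3 counts in every library. The sum of that list ran from 2.71 to 4.02 CPM in untreated and from 27.1 to 61.7 CPM in curcumin libraries, with PTPRC at 0.289 ± 0.278 CPM after curcumin and CD3E at 0 in all libraries. The endothelial list went from 1.44 to 2.24 up to 8.96 to 28.2 CPM, mostly PECAM1, and the fibroblast list overlapped between the groups (25.7 to 30.7 and 15.5 to 38.7 CPM). The part of these markers in the changes of the members was not tested.

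The main glucose carrier by level and the hexokinase gene HK2 fell. SLC2A1 (GLUT1, the basal glucose carrier; ENSG00000117394, chromosome 1, 42925375 to 42959176 in GRCh38, 10 exons in its longest coding transcript) was at 271, 245 and 276 CPM in untreated replicates 1, 2 and 3 and at 132, 101 and 76.9 CPM in the curcumin replicates. The groups were apart, with the lowest untreated library well above the highest treated library, and SLC2A1 fell by 1.35 ± 0.19 on the log2 scale (± SE, adjusted p = 0.000258). SLC2A3, a carrier of higher affinity, stood at 38.6, 16.3 and 32.1 CPM against 30.3, 22.2 and 28.7 CPM, with overlapping groups and the lowest value in untreated replicate 2 (adjusted p = 0.785). HK2, the hexokinase that many tumours induce and that docks on mitochondria (chromosome 2, 74833981 to 74893359, 18 exons), was at 61.5, 40.5 and 56.2 CPM untreated and at 19.9, 22.8 and 26.9 CPM after curcumin. All treated libraries lay below all untreated ones and HK2 fell by 1.18 ± 0.20 (adjusted p = 0.000703). With each library's trend in transcript length and GC content removed, its log2 fold change was −0.64 (adjusted p = 0.0174). HK1, the widely expressed hexokinase, had 119, 103 and 121 CPM untreated and 154, 149 and 138 CPM treated. It was called slightly higher (0.36 ± 0.13, adjusted p = 0.0405), a call that most alternatives ended and that turned to −0.44 under library size alone (adjusted p = 0.0255).

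The middle enzymes of the upper part rose. GPI, which turns glucose phosphate into fructose phosphate, was at 442, 482 and 338 CPM untreated and at 1086, 1173 and 977 CPM after curcumin. It rose by 1.36 ± 0.17 (adjusted p = 0.000116), and its lowest untreated library was replicate 3, as for most lower-step genes. Phosphofructokinase, the committed step, is encoded by PFKM, PFKL and PFKP, named after muscle, liver and platelets. PFKM went from 97.0 ± 5.77 to 228 ± 24.5 CPM (1.23 ± 0.14, adjusted p = 7.01e-05). PFKL went from 163 ± 16.8 to 322 ± 19.4 CPM (0.98 ± 0.14, adjusted p = 0.000237; 0.18 and not called under library size alone). PFKP went from 229 ± 10.5 to 368 ± 65.7 CPM (0.68 ± 0.16, adjusted p = 0.00451; −0.12 and not called under library size alone). For each of these genes the 3 treated libraries were above the 3 untreated ones.

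The bifunctional PFKFB enzymes, which make and remove the sugar bisphosphate that activates phosphofructokinase, did not follow it. PFKFB4 was at 32.6, 26.2 and 24.7 CPM untreated and at 18.1, 17.7 and 10.3 CPM treated, and it fell by 0.85 ± 0.24 (adjusted p = 0.0112; 0.0558 without untreated replicate 1). PFKFB3, the form with the strongest kinase activity, had 55.0, 62.5 and 66.4 CPM untreated and 51.0, 62.2 and 94.8 CPM treated, the highest value in curcumin replicate 3 (adjusted p = 0.511). PFKFB2 had 19.7, 18.7 and 19.7 CPM against 10.2, 14.5 and 17.3 CPM, groups that did not overlap but did not pass the test (−0.47 ± 0.22, adjusted p = 0.0912). Without curcumin replicate 3 it was called lower (adjusted p = 0.0228). Of the 11 uptake and upper-step members, 5 rose and 3 fell (median log2 fold change 0.18), beside 27.2% and 28.9% of all tested genes. Under library size alone 2 were called higher and 7 lower (median −0.65), and the rises of GPI and PFKM were 0.55 and 0.42. In that setting most calls over all tested genes were also lower (median −0.84).

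**Figure D2:**
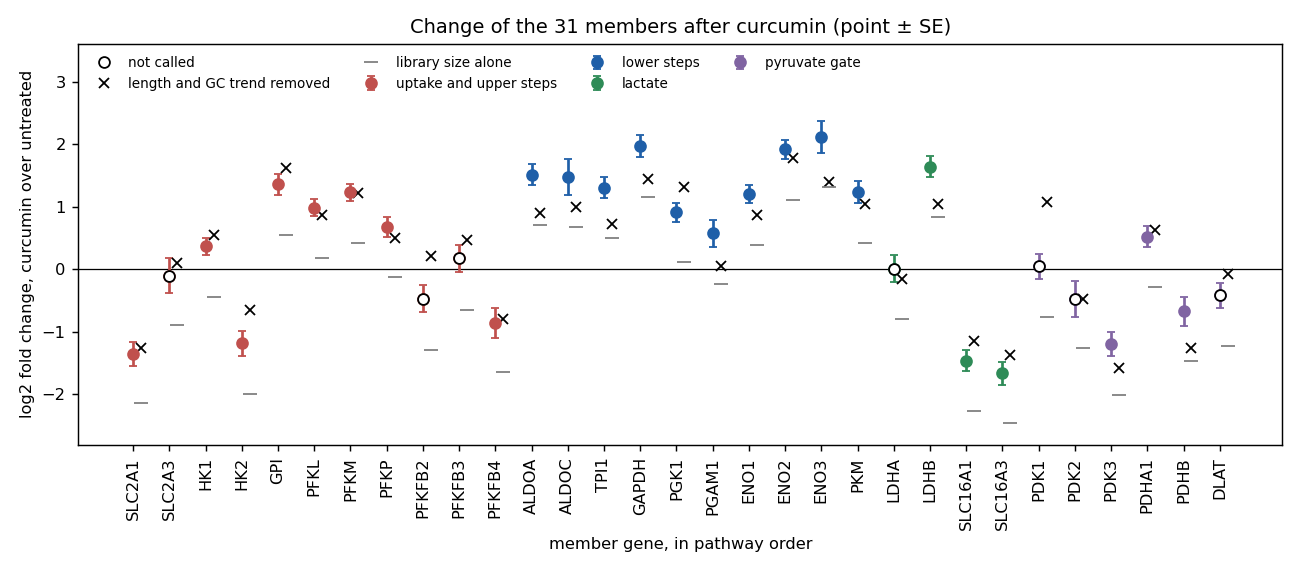
Log2 fold change of each member (curcumin over untreated) with its standard error, coloured by step, white where the edgeR adjusted p was 0.05 or more. Crosses give the value with the length and GC trend removed and dashes the value under library size alone, which lies lower for every member: all 10 lower-step points are above 0 and their dashes too except PGAM1 at −0.23.

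All 10 lower-step members rose, with a median log2 fold change of 1.39 and a range of 0.58 to 2.12, and none had overlapping groups. Under library size alone 8 were called higher and 0 lower (median 0.59), with ALDOA at 0.71, TPI1 at 0.50, ENO1 at 0.40 and PKM at 0.43. ALDOA, the main aldolase, which cuts the sugar bisphosphate into trioses, was at 1375, 1294 and 1004 CPM untreated and 3383, 3539.6 and 3553 CPM treated (1.51 ± 0.16, adjusted p = 5.27e-05). ALDOC, the brain form, had 103, 40.2 and 88.7 CPM against 229.6, 211 and 206 CPM (1.48 ± 0.29, adjusted p = 0.00155). TPI1, which interconverts the trioses, went from 419 ± 78.0 to 1035 ± 55.5 CPM (1.30 ± 0.17, adjusted p = 0.00013; 0.72 with the trend in length and GC content removed). In each of these genes the treated libraries lay closer to each other than the untreated ones.

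GAPDH, the NADH-forming dehydrogenase of the pathway (ENSG00000111640, chromosome 12, 6533927 to 6538374, 9 exons), was at 3768, 3751 and 2962 CPM untreated and at 12607, 14234 and 14204 CPM treated. It rose 3.92-fold (log2 1.97 ± 0.17, adjusted p = 1.82e-05) and by 1.16 under library size alone. As a share of all counts, which needs no scaling factor, GAPDH took 0.462 ± 0.0598% of untreated and 1.03 ± 0.0319% of curcumin libraries. TPI1 (6867119 to 6870948), ENO2 (6913745 to 6923698) and LDHB (21635342 to 21757857), which rose, lie on the same arm of chromosome 12. So does SLC2A3 (7919230 to 7936275), which did not pass the test. PGK1, the first ATP-forming step, on the X chromosome, was at 516, 419 and 388 CPM and at 813, 863 and 815 CPM (0.91 ± 0.15, adjusted p = 0.000592). Under library size alone PGK1 had 0.11 and was not called (adjusted p = 0.54). Removal of the length trend gave 1.32, a value that rests on a longest transcript of 4887 bases. PGAM1, the phosphoglycerate mutase, had the smallest rise of the lower-step members, from 353, 502 and 258 CPM to 544, 575 and 539.9 CPM (0.58 ± 0.22, adjusted p = 0.0425). The highest untreated library came close to the lowest treated one, and the call was lost in 8 of 16 alternatives, among them the length trend removed (0.05, adjusted p = 0.841).

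The enolases and pyruvate kinase closed the lower part. ENO1, the common enolase, was at 2254, 1934 and 1911 CPM untreated and 4634, 4772 and 4596 CPM treated (1.20 ± 0.15, adjusted p = 0.000107). ENO2, the neuronal form, was at 53.8, 42.0 and 46.3 CPM and at 166, 178 and 192 CPM (1.92 ± 0.15, adjusted p = 1.38e-05). ENO3, the muscle form, had the largest fold change of the members, 2.51 ± 0.249 CPM untreated and 10.9 ± 0.801 CPM treated (2.12 ± 0.25, adjusted p = 9.06e-05). PKM, the pyruvate kinase gene of most tumours, was at 1845, 2473 and 1638 CPM and at 4703, 4734 and 4573 CPM (1.23 ± 0.18, adjusted p = 0.000288). A table of genes does not separate the splice forms of PKM.

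Lower steps were set against upper steps within each library, as the mean log2 level of the 10 lower-step members minus that of the 11 uptake and upper-step members, a difference that no scaling factor can move. It was 1.86, 1.999 and 1.71 in untreated replicates 1, 2 and 3 and 3.22, 3.24 and 3.23 in the curcumin replicates. The treated values were nearly identical and all above the untreated ones, and the means (1.85 ± 0.15 and 3.23 ± 0.01, n = 3) differed by 1.38 log2 units, a 2.59-fold shift. It is given without a test, as a score over chosen genes. The difference was 0.87 over main-line enzymes only, without carriers and PFKFB genes, and 0.82 with the length and GC trend removed, with groups apart in both. In summed shares of the libraries, lower-step genes took 1.34 ± 0.167% of untreated and 2.22 ± 0.0829% of curcumin counts, and upper-step genes 0.196 ± 0.00834% and 0.182 ± 0.0202%. The summed share of the lower steps was higher in every treated library, and the shares of the upper steps overlapped.

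**Figure D3:**
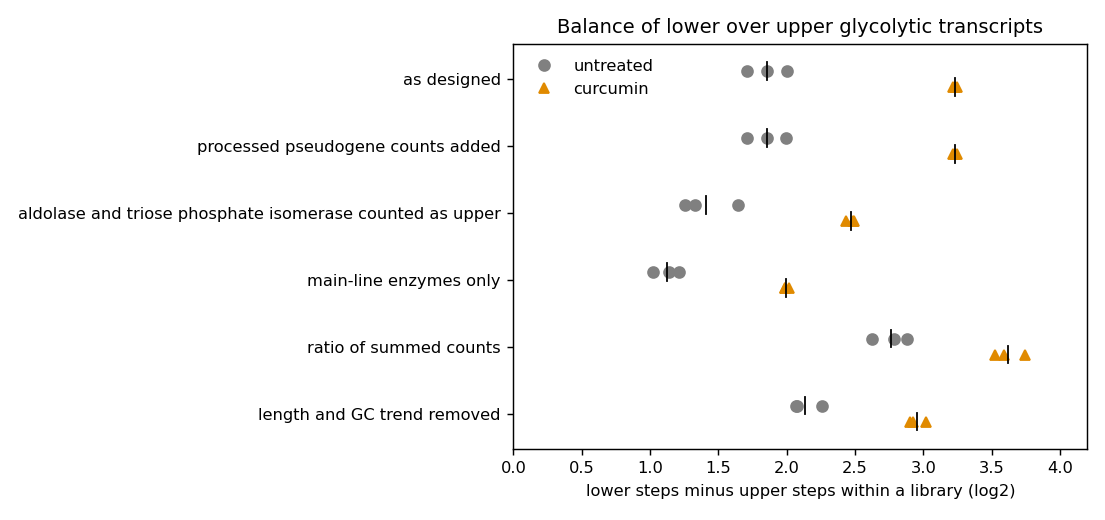
Mean log2 level of the lower-step members minus that of the uptake and upper-step members in each library (grey circles untreated, orange triangles curcumin, bars the group means), as designed and in 5 alternatives. The curcumin libraries lie to the right in all of them, by 0.82 to 1.38 log2 units.

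At the lactate step the isoforms parted. LDHB (ENSG00000111716, chromosome 12, 21635342 to 21757857), whose product is the heart form favouring lactate oxidation, was at 536, 546 and 386 CPM untreated and at 1452, 1512 and 1611 CPM treated. It rose 3.12-fold (1.64 ± 0.17, adjusted p = 4.11e-05; 0.83 under library size alone). LDHA (ENSG00000134333, chromosome 11, 18394388 to 18408425), the muscle form that makes lactate, was at 567, 615 and 399 CPM untreated and at 620.3, 580.1 and 389 CPM treated. Its groups overlapped fully and the fold change was 0.01 ± 0.21 (adjusted p = 0.979), with −0.79 under library size alone (adjusted p = 0.00944). The ratio of LDHA to LDHB counts, free of scaling, was 1.06, 1.13 and 1.03 in untreated and 0.427, 0.384 and 0.242 in curcumin libraries. LDHA supplied 40.6 ± 1.05% of the lactate dehydrogenase counts per base in untreated cells and 18.1 ± 4.24% after curcumin.

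Both lactate carriers fell. SLC16A1 (MCT1) was at 127, 118 and 137 CPM untreated and at 43.5, 40.0 and 55.8 CPM treated (−1.46 ± 0.16, adjusted p = 6.58e-05). SLC16A3 (MCT4, the exporter of strongly glycolytic cells; chromosome 17, 82228397 to 82261129) was at 321, 421 and 322 CPM untreated and at 135, 107 and 94.0 CPM treated, and its fall of 1.66 ± 0.18 (adjusted p = 5.59e-05) was the largest among the members. Neither pair of groups overlapped. The carriers kept their proportions, SLC16A3 giving 71.3 ± 4.42% of their counts per base untreated and 68.3 ± 7.01% treated, with overlapping groups. Basigin (BSG), the membrane partner that brings both carriers to the surface, moved the other way, from 541.5 ± 25.8 to 1379 ± 94.8 CPM (1.35 ± 0.14, adjusted p = 3.88e-05). Its homologue embigin (EMB) fell from 15.5 ± 2.10 to 8.07 ± 1.64 CPM (−0.94 ± 0.23, adjusted p = 0.00558; 0.0624 after removal of the length trend).

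**Figure D4:**
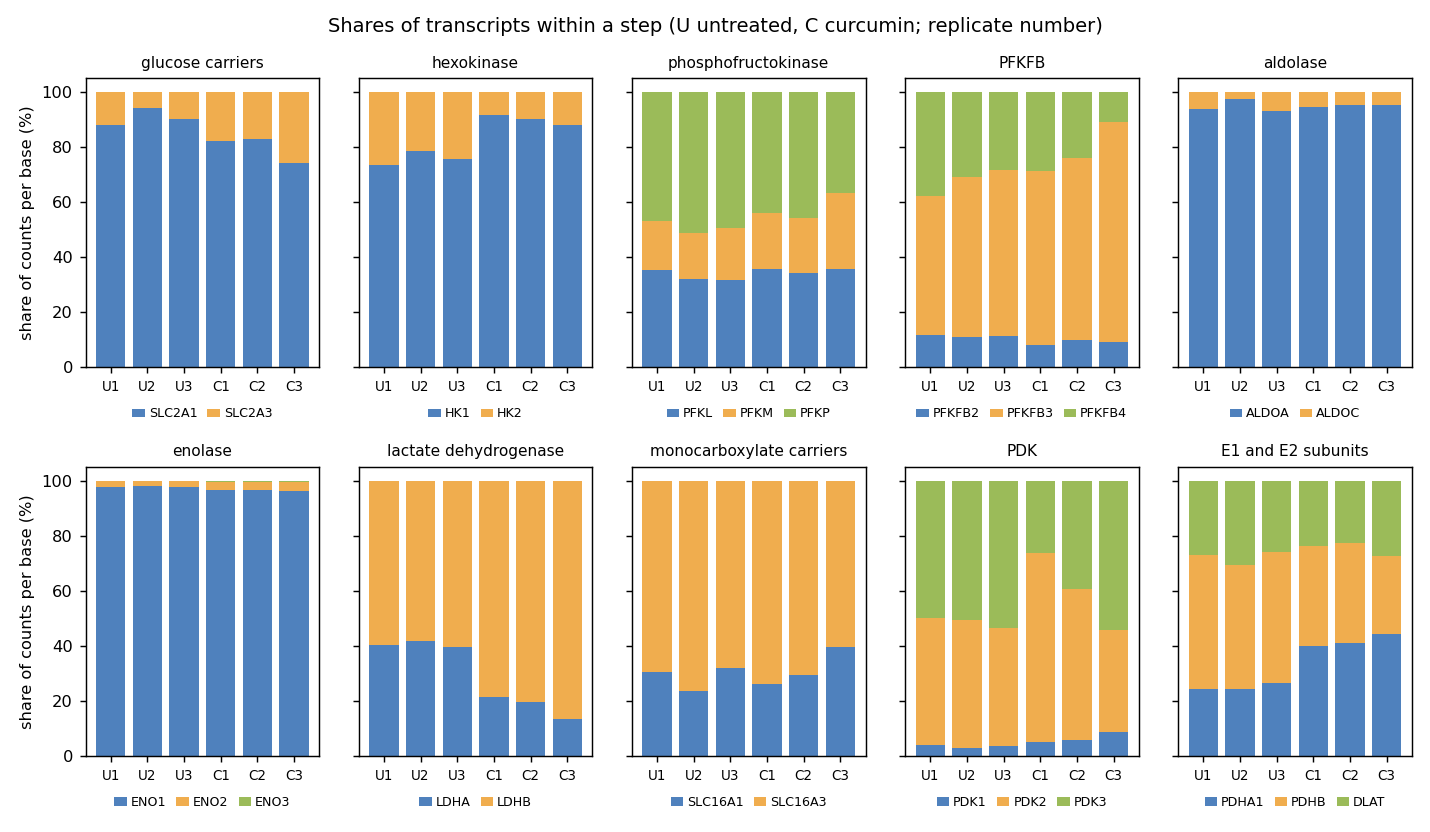
Share of counts per base of transcript that each gene took within its step, in percent, for untreated (U1 to U3) and curcumin (C1 to C3) libraries. LDHA and HK2 lose share in all 3 curcumin libraries, while the aldolase and monocarboxylate carrier shares overlap between the groups.

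In the same reading HK2 took 24.1 ± 2.47% of hexokinase counts per base in untreated and 9.90 ± 1.88% in curcumin libraries. SLC2A3 took 9.15 ± 3.004% of the counts per base of both glucose carriers untreated and 20.2 ± 4.91% treated, with groups apart, while its own level did not pass the test. PFKP gave 49.1 ± 2.21% and 42.1 ± 4.79% of phosphofructokinase counts per base, and ENO2 1.89 ± 0.110% and 3.07 ± 0.240% of those of enolase, both without overlap. The isoform share of PFKP differed by −7.001 percentage points, and by −4.30 without curcumin replicate 3. ALDOC took 5.14 ± 2.29% and 4.95 ± 0.405% of aldolase counts per base, with overlap.

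At the gate to the mitochondrion the kinases and the enzyme subunits were divided. PDK3, a kinase that keeps activity at high product levels, was at 26.7, 27.9 and 29.4 CPM untreated and at 9.41, 13.6 and 13.7 CPM treated (−1.19 ± 0.20, adjusted p = 0.000593). PDK1, the hypoxia-inducible kinase, was at 16.2, 11.8 and 15.3 CPM and at 13.4, 15.1 and 16.2 CPM (0.05 ± 0.20, adjusted p = 0.861). It was called higher with the length trend removed (1.08), a value that rests on a longest transcript of 14193 bases, and lower under library size alone (−0.76). PDK2, the most widespread kinase, was at 44.3, 45.9 and 42.4 CPM and at 44.1, 34.3 and 16.8 CPM, with the treated libraries spread far apart (−0.48 ± 0.29, adjusted p = 0.181; called lower in 4 of 16 alternatives, among them without curcumin replicate 1). PDK3 was the only kinase among the members with groups that did not overlap.

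Among the subunits, PDHA1, the catalytic alpha subunit that the kinases phosphorylate, rose from 46.8 ± 6.85 to 67.2 ± 7.23 CPM (0.52 ± 0.16, adjusted p = 0.0197; −0.28 and not called under library size alone, and lost when untreated replicate 1 or 3, or curcumin replicate 1 or 2, was left out, with adjusted p between 0.0594 and 0.0909). PDHB, its partner in the same enzyme, was at 40.2, 43.9 and 32.0 CPM and at 28.2, 28.1 and 16.6 CPM and fell by 0.67 ± 0.23 (adjusted p = 0.0276; 0.0779 and 0.0835 without untreated replicate 1 or 2). DLAT, the acetyl-transferring core, was at 64.6, 86.3 and 50.4 CPM and at 53.2, 51.2 and 46.5 CPM (−0.41 ± 0.20, adjusted p = 0.0981; called lower without untreated replicate 3, 0.0238). The partner subunits of the same enzyme therefore had opposite calls, and PDHA1 supplied 25.1 ± 1.24% of the counts per base of these 3 genes untreated and 41.7 ± 2.27% treated, without overlap. Of the 6 gate members, 1 rose and 2 fell, near the shares of all tested genes (27.2% and 28.9%), and under library size alone 0 rose and 5 fell.

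Of the complex's other genes 6 were tested among 7 listed, 4 fell and 1 rose, beside 28.9% and 27.2% of all tested genes. PDP1, the phosphatase subunit that reactivates the complex, went from 854 ± 66.3 to 138 ± 27.8 CPM (−2.63 ± 0.18, adjusted p = 1.14e-05), and PDP2, the second phosphatase, from 26.97 ± 2.50 to 4.397 ± 1.13 CPM (−2.62 ± 0.23, adjusted p = 2e-05). PDPR, the regulator of the phosphatase, chosen after its values were seen, went from 87.3 ± 12.8 to 27.1 ± 3.56 CPM (−1.69 ± 0.17, adjusted p = 3.81e-05). PDPR has a near-identical copy elsewhere in the genome, so its counts are uncertain. All of these calls held in all 15 alternatives. PDK4, the starvation-induced kinase, rose from a low level, 3.01 ± 1.39 to 6.86 ± 2.05 CPM (1.19 ± 0.40, adjusted p = 0.0291), with the call lost in 6 of 15 alternatives, among them those without untreated replicate 2 or 3 and without curcumin replicate 2 or 3.

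Around the pathway, listed genes moved in both directions. Of 18 further glucose and monocarboxylate carriers and their partners, 14 were tested, 6 rose and 3 fell, against 3 and 6 under library size alone. SLC2A11 rose from 10.1 ± 1.49 to 34.6 ± 5.57 CPM (1.77 ± 0.20, adjusted p = 6.02e-05), and SLC16A7 (MCT2) fell from 11.97 ± 1.35 to 2.59 ± 0.971 CPM (−2.20 ± 0.32, adjusted p = 0.000274). Of 23 other glycolytic isoforms and side enzymes only 11 were tested, 2 of which rose and 2 fell: PGM1, which links glycogen to glycolysis, rose by 0.83 ± 0.14 (0.03 and not called under library size alone) and PGM2L1 fell by 1.13 ± 0.22 (not called with the length trend removed). The ADP-dependent glucokinase ADPGK fell by 0.48 ± 0.17 (adjusted p = 0.0382), a call lost in 5 of 15 alternatives, among them those without untreated replicate 2 and without curcumin replicate 1 or 2. Of 8 gluconeogenic genes 4 were tested and 2 rose, G6PC3 by 1.12 ± 0.16 and SLC37A4 by 1.14 ± 0.18, neither called under library size alone. Of 16 citrate cycle genes 8 were called higher and 2 lower (median 0.47), beside 27.2% and 28.9% of all tested genes. The rises included IDH3G (1.34 ± 0.16) and MDH2 (1.11 ± 0.14; not called under library size alone), and the falls were SDHA (−0.998 ± 0.22) and OGDH (−0.73 ± 0.19). Under library size alone 3 citrate cycle genes rose and 7 fell.

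Among regulators of glycolytic transcription, HIF1A, the hypoxia-inducible subunit that drives many of the members in low oxygen, was at 139 ± 18.1 CPM untreated and 123 ± 17.2 CPM treated (−0.18 ± 0.16, adjusted p = 0.348). HIF1A was called lower in 2 of 15 alternatives, library size alone and library size leaving out the top 100 genes. VHL, which marks HIF subunits for degradation, fell from 71.2 ± 11.5 to 18.2 ± 4.92 CPM (−1.96 ± 0.22, adjusted p = 6.18e-05), and HIF1AN, which hydroxylates them, from 114 ± 6.30 to 47.7 ± 5.58 CPM (−1.26 ± 0.15, adjusted p = 7.94e-05; 0.202 with the length trend removed). MYC, which drives several glycolytic genes, was at 284 ± 76.5 and 183 ± 66.9 CPM (−0.63 ± 0.27, adjusted p = 0.0672; called lower in 7 of 15 alternatives, among them those without untreated replicate 2 and without curcumin replicate 3). MLXIPL, the glucose-sensing factor ChREBP, rose by 1.01 ± 0.21 and was not called under library size alone. TXNIP, which restrains glucose uptake, was listed at 0 in all 6 libraries, which was not checked against reads and does not show that it was not expressed. Of the 17 tested among 19 listed regulators, 3 rose and 7 fell, beside 27.2% and 28.9% of all tested genes, and under library size alone 0 rose and 14 fell.

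In levels per kilobase of the longest coding transcript GAPDH stood first in untreated cells with 1863 ± 246 CPM per kb. ENO1 (867 ± 81.7), ALDOA (732 ± 117) and PKM (731 ± 160.1) followed and did not differ beyond their spread. LDHB (318 ± 58.5), TPI1 (238 ± 44.2), LDHA (218 ± 47.0) and PGAM1 (203 ± 67.1) came next. TPI1, LDHA and PGAM1 did not differ beyond their spread. After curcumin GAPDH reached 7297 ± 496 CPM per kb, ALDOA 2088 ± 56.5, ENO1 1990.4 ± 39.6 and PKM 1719 ± 31.4. LDHB reached 991 ± 52.4 and GPI 248 ± 22.6, while LDHA stayed at 219 ± 51.1. At the other end were PDK1 (1.02 ± 0.161), ENO3 (1.65 ± 0.163) and PFKFB2 (2.73 ± 0.0867) in untreated cells. The place of PDK1 rests on a longest transcript of 14193 bases, which may not be the one sequenced. Before division by length PDK1 was at 14.4 ± 2.29 CPM untreated, above ENO3 at 2.51 ± 0.249 CPM.

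Transcript length moved with the changes. Log2 fold change fell with the length of the longest coding transcript over the 31 members (Spearman rho −0.53) and over 10599 protein-coding genes of at least 5 CPM (rho −0.50), both across genes of the same libraries, which are not independent. The lower-step members had a median length of 1929 bases (1521 to 4887) and the upper-step members 3915 bases (2769 to 7094). Which transcript of a gene the cells expressed was not tested, so these lengths may not be those sequenced. By these lengths, members did not all lie on that trend. PDHB (1527 bases) and PDK3 (1921 bases) fell although short, and GPI (4341 bases) and PGK1 (4887 bases) rose although long. SLC2A1 (3670 bases) and PFKFB4 (3586 bases) fell where the somewhat shorter PFKM (3226 bases) rose, which is the direction of the trend. With each library's length and GC trend removed, 9 of 10 lower-step members and 5 of 11 upper-step members were called higher, and 3 upper-step members lower. Without that removal 27.2% of all tested genes were called higher and 28.9% lower, and both shares were smaller with it. The median log2 fold changes with the trend removed were 1.015 for lower and 0.47 for upper steps, against 0.03 over all genes tested in that setting.

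**Figure D5:**
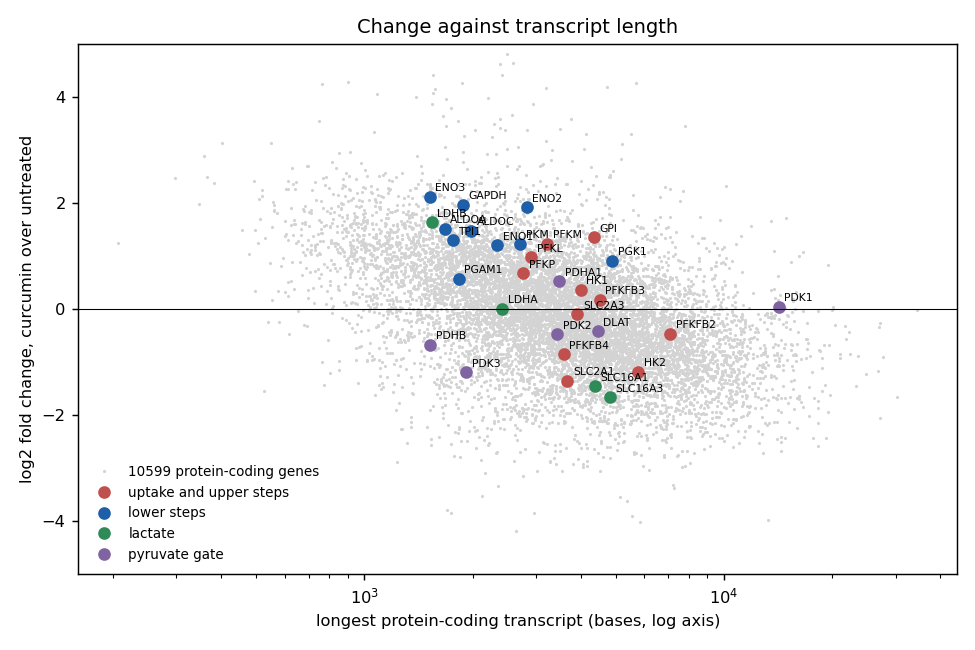
Log2 fold change (curcumin over untreated) against the length of the longest protein-coding transcript on a log axis, for 10599 protein-coding genes in grey, 10 of which lie outside the plotted range, and the 31 members coloured by step. Most lower-step genes are short and lie above 0, with PGK1 (4887 bases) the longest of them, the carriers SLC2A1, SLC16A1 and SLC16A3 below 0 at middle lengths, and PDHB and PDK3 below 0 among short transcripts.

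Promoters of the members were read from RefSeq's table (GRCh38.p14, 250 bases before to 50 after the gene start), in which 28 of the 31 were found. SLC2A3, PFKFB2 and SLC16A1 were not matched. RefSeq's starts can differ from those of GENCODE. The GAPDH and PGK1 stretches below lie upstream of the RefSeq start but within the GENCODE bounds of these genes (PGK1 77910739 to 78129296). The letters ACGTG, the core of the hypoxia-response element, were searched on both strands and stood in 11 of 28, where 21.4% of 35116 promoters held them. The E-box CACGTG, bound by MYC, which contains those letters, stood in 4 of 28 (7.26% of all), GGGCGG in 21 of 28 (45.0%) and the heat shock pair GAANNTTC in 1 of 28, PGK1 (6.77%). The members' promoters also held more G and C than all promoters (median 69.8% against 58.7%) and more CG pairs (28.5 against 14), and the first 3 motifs contain CG. ACGTG stood in 6 of 17 members called higher, 3 of 6 called lower and 2 of 5 not called. The stretches below, upstream of the start and outside annotated exons, are shown because genes that rose (GAPDH and PGK1), fell (PDHB) or did not pass (LDHA) all hold these letters. Each is written 5′ to 3′ on the gene's strand, with ACGTG or CACGTG and their reverse complements in capitals.
GAPDH, chr12:6535142-6535263, plus strand: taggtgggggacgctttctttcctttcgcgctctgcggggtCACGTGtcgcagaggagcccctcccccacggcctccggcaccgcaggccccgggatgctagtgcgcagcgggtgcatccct
PGK1, chrX:78103998-78104173, plus strand: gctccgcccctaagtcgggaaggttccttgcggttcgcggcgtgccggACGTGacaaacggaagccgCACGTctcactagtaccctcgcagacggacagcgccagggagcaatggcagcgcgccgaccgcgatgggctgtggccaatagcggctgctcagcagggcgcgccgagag
LDHA, chr11:18394313-18394387, plus strand: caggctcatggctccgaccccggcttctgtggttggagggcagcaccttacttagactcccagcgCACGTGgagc
PDHB, chr3:58433858-58434082, minus strand: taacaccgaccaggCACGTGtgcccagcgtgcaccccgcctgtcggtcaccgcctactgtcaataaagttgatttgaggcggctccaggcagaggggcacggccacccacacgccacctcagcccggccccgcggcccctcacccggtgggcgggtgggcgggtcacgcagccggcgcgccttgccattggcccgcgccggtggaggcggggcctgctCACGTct
A match is a description of the letters and not a bound site. SLC2A1, ENO1, PKM and LDHB held no ACGTG in the searched window, among genes that fell and rose alike.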

How the data were processed

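RNA-seq libraries of 3 untreated and 3 curcumin-treated HCT116 samples were compared, grouped by their titles. The authors deposited a table of estimated counts per gene (expected counts, many not whole), unscaled. Aligner, counter and annotation: not given in the sources used here. Although the builds in the submitters' processing notes are those of the mouse (GRCm38, mm10), the 35106 rows all carry human Ensembl identifiers, 35003 of them found in GENCODE release 29 (GRCh38), which gave positions, transcript lengths and exons. Counts were rounded (no value moved by more than 0.5), filtered by edgeR's filterByExpr (at least 10 counts, total at least 15), scaled by TMM and tested with edgeR 4.0.16 (quasi-likelihood, all 6 libraries, no other term, R 4.3.3). Standard errors were taken from the log2 fold change and its F statistic. A count of 3 equalled 0.114 to 0.123 CPM in untreated and 0.224 to 0.238 CPM in curcumin libraries after scaling, counting error only.

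Alternatives were other scalings (median-of-ratios, library size alone, library size leaving out the top 100 genes by abundance), no filter or a mean of at least 50 counts, DESeq2 1.42.0, limma-voom (limma 3.58.1), the replicate number as a block, each library left out, length and GC trends removed (loess span 0.3, protein-coding transcripts) and processed pseudogene counts added. The main fit was tested on simulated data with the same assumed spread for all genes. It called 52 of 100 genes changed 2-fold, 96 of 96 changed 4-fold and 11 of 13155 unchanged. A gene that did not pass the test may therefore still have changed. Every pair of libraries differed by more than sampling noise (chi-square per degree of freedom at least 11.6). The members and the gene lists were chosen with earlier results of these data known. Beyond the members, the rule for naming took, by smallest adjusted p, up to 2 rising and 2 falling genes per list, plus HIF1A, MYC and TXNIP, and a pseudogene row above 1% of its member's counts. 1 gene that this rule names is not reported here. How strand and shared reads were handled is not stated, so overlapping genes and close copies are uncertain.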

Additional observations from a re-analysis of the deposited data

How the results depend on the processing

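Of the 31 members, 16 had the same call in all 16 alternatives, 11 of them higher and 5 lower (SLC2A1, HK2, SLC16A1, SLC16A3 and PDK3). Scaling mattered most. Under library size alone 11 members were called higher and 15 lower, in place of 17 and 7, and 7 members changed sign: HK1 (−0.44), PFKP (−0.12), PFKFB3 (−0.65), PGAM1 (−0.23), LDHA (−0.79), PDK1 (−0.76) and PDHA1 (−0.28). The other settings with all libraries gave 13 to 17 higher and 7 to 10 lower. The lower-minus-upper difference of 1.38 became 1.06 with aldolase and triose phosphate isomerase counted as upper, 0.87 over main-line enzymes, 0.85 as a ratio of summed counts and 0.82 with the length and GC trend removed. With each library left out it ran from 1.30 to 1.45, the members called from 14 to 16 higher and 5 to 8 lower, and all genes called from 6622 to 8149. Deviations of same-numbered libraries had correlations of 0.04, 0.03 and 0.13, beside −0.096 to 0.050 between libraries of other numbers. Whether the numbers mark a pairing cannot be told from these values. With the replicate number as a block 16 members were higher and 7 lower, HK1 losing its call (adjusted p = 0.0569), and 7694 of all genes were called in place of 7696. Processed pseudogene rows, at most 1.91% of their member in any library (SLC2A3), changed no member's call. ENO3, with 59 to 66 counts in untreated libraries, had the fewest counts of the members.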

Other observations

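The lactate dehydrogenase locus on chromosome 11 held reads after curcumin that untreated libraries lacked. LDHC, the testis form, whose gene begins 3882 bases beyond the end of LDHA on the same strand (18412307 to 18452058), had 0 counts in all untreated libraries and 84, 36 and 99 in the curcumin libraries. Against a floor of 3 counts per untreated library, 0.118 CPM on average, LDHC was at least 47.5-fold higher, while LDHA itself did not pass the test. LDHAL6A, the next gene in the same orientation (18455824 to 18479600), had 0, 2 and 3 counts untreated and 21, 4 and 21 treated. Of the 31 nearest same-strand genes downstream of the members, chosen after the values were seen, only LDHC and C4BPB, 7818 bases beyond PFKFB2 (0 counts untreated and 8, 4 and 20 treated), were at 0 in untreated libraries and above 3 counts in every treated library, as were 113 of all 35106 rows (0.322%). Whether these reads begin at their own promoters was not tested.

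GAPDH is a common reference transcript. Read against it within each library, 27 of the other 30 members had all curcumin values below all untreated values, 0 had them above and 3 (ALDOC, ENO2 and ENO3) overlapped. The same reading put 87.3% of all 13718 tested genes lower and 2.70% higher. A gene that rose less than GAPDH reads as lower here. LDHB, which rose 3.12-fold in the scaled data against 3.92-fold for GAPDH, was lower by 0.32 log2 units relative to GAPDH.

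SLC2A14, a close copy of SLC2A3 on chromosome 12, was at 0 in untreated libraries and at 11, 23 and 8 counts after curcumin, and a processed pseudogene of PKM, PKMP1 on chromosome 1, at 0 and at 51, 28 and 66, both named after their values were seen. Reads of close copies may have been shared out upstream, which was not tested.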
